A study of Mus musculus with 8 samples.

Results

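BDC2.5/NOD.scid mice were compared with NOD.scid mice, both at 3 weeks of age, to ask what a single diabetogenic T cell receptor changes in the pancreas of animals that lack other mature lymphocytes. The comparison was formed by the sample titles and used 4 of the 8 arrays of the series, 2 per group. The other 4 arrays came from NOD and BDC2.5/NOD mice of the same age and entered the fit for the spread and for 1 test of difference. NOD is the inbred strain that develops autoimmune diabetes. Both groups compared carry scid, a mutation of the DNA repair kinase Prkdc that blocks the joining of antigen receptor segments; such hosts keep innate immune cells. BDC2.5/NOD.scid also carries the BDC2.5 transgene, a rearranged receptor from an islet-specific CD4 T cell clone; the sources used here name neither its promoter nor its insertion site. Per the labels, whole pancreas of 6 animals went into each of 2 RNA isolations, which were then pooled. The labels do not say whether both arrays of a group share a pool, so p-values measure only the spread between arrays, which may be technical.

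Whole pancreas is mostly acinar tissue, with islets as a small share of its cells. T cells that meet antigen in islets release cytokines, of which interferon gamma induces MHC genes, the immunoproteasome and GTPases of cell defence, and ligands of the IL-6 family induce acute-phase proteins through STAT3. Acinar cells respond to injury with secreted lectins of the Reg family. In such bulk RNA, fewer cells of a type and less RNA per cell cannot be told apart.

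Of 8251 genes, each taken by its brightest probe set, 203 were higher (2.46% of all) and 372 lower (4.51%) in BDC2.5/NOD.scid at an adjusted p under 0.05 in limma, a linear model with pooled variances. Differences are given on the log2 scale, and levels as the 2 NOD.scid arrays against the 2 BDC2.5/NOD.scid arrays. The genes that were higher differed by more: 50 exceeded 2-fold and 17 exceeded 4-fold, against 19 and 3 of those that were lower. The median fold was 1.57 among the former and 1.43 among the latter, and the largest were 26.7 and 6.25. Both groups of genes spanned dim and bright probe sets, and the brightest digestive enzymes, such as Cela1 and Ctrb1, lay on the zero line in the plot of differences against level. Whether called or not, 20.7% of all genes had both BDC2.5/NOD.scid arrays above both NOD.scid arrays and 23.8% had both below. The median difference over all genes was -0.01. All 50 genes named by size, 25 in each direction, kept their call under all 19 alternative settings. They were chosen as the largest called differences of the same fit, so this does not speak for smaller calls. The number of calls was sensitive to single arrays: without BDC2.5/NOD.scid replicate 2, 319 genes passed, with 161 higher and 158 lower, and without NOD.scid replicate 1, 360 passed, with 160 higher and 200 lower.

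**Figure D1:**
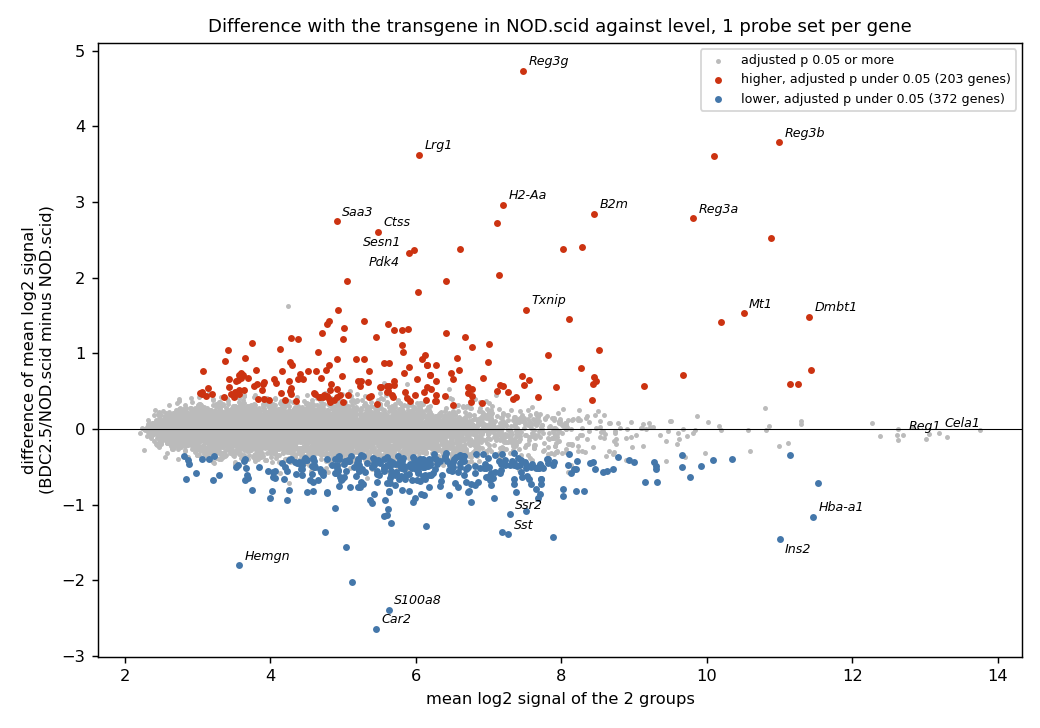
Difference of mean log2 signal, BDC2.5/NOD.scid minus NOD.scid, against the mean log2 signal of both groups for 8251 genes; coloured points passed the limma threshold. Reg3g stands highest at 4.74 and Car2 lowest at -2.64, and the 203 red points reach farther from 0 than the 372 blue ones.

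Quality measures were taken on the same arrays. Across probe sets, Pearson's r was 0.9912 between the NOD.scid arrays, 0.9921 between the BDC2.5/NOD.scid arrays and 0.9783 to 0.9815 between groups. The middle actin control was high on 1 array of each group (9.55 on NOD.scid replicate 1, 9.26 on BDC2.5/NOD.scid replicate 2) and low on the other (7.74 and 7.46), so this split crosses the groups. Xist, made from the inactive X of females, read 3.35 and 3.52 in NOD.scid and 4.19 and 5.92 in BDC2.5/NOD.scid (limma adjusted p = 0.211), and Y-linked Eif2s3y read 3.90 and 4.10 against 3.49 and 3.15 (adjusted p = 0.0119). The other Y-linked genes checked, Kdm5d (-0.02, limma adjusted p = 0.957) and Uty (-0.09, adjusted p = 0.830), did not pass. Each of these Y-linked genes, Eif2s3y included, lay under the median of all values, 4.27, on these arrays. The labels give no sex for the pools, and its part in the results was not tested. The elastase Cela1 and insulin gene Ins2, which define exocrine pancreas and islets, were bright in both groups, at means of 13.22 and 13.17 and of 11.72 and 10.28. Deposited values carry no detection calls, and 65 of the genes that were higher lay under the median of all values in NOD.scid, where a difference may be understated.

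Genes of antigen presentation were higher in BDC2.5/NOD.scid. Of 16 measured genes of MHC class II, which shows peptides to CD4 T cells, 6 were higher and 0 lower, with a median difference of 0.24 against -0.01 for all genes. H2-Aa, the class II alpha chain, read 5.64 and 5.81 in NOD.scid and 8.82 and 8.56 in BDC2.5/NOD.scid. Its 7.81-fold difference (2.96 on the log2 scale, SE 0.12, limma adjusted p = 1.06e-08) was many times the gap between arrays of a group. Cd74, the invariant chain that holds class II until a peptide is loaded, read 5.928 and 5.563 against 8.004 and 8.946, a difference of 2.73 (SE 0.23, adjusted p = 1.10e-05). Its transgenic arrays differed by almost a full log2 unit. The beta chains moved with the alpha chain: H2-Eb1 read 6.19 and 6.08 against 8.11 and 8.22, and H2-Ab1 read 4.98 and 5.28 against 6.94 and 6.95. Ctss, the cathepsin that cuts Cd74 down for loading, read 4.16 and 4.20 against 6.75 and 6.82, a difference of 2.61. H2-DMb1, a chain of the peptide editor, read 5.66 and 6.01 against 6.49 and 6.61. The reductase Ifi30 (-0.08) and Ciita, the master activator of class II genes, at means of 4.45 and 4.46, did not pass. The other editor chain, H2-DMa, was at 0.12 on its brightest probe set, which did not pass, and at 0.74 on a dimmer one, which did (limma adjusted p = 0.00122).

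Of 20 genes of MHC class I and its peptide supply, 8 were higher and 1 was lower. B2m, the light chain shared by all class I molecules, read 7.02 and 7.03 in NOD.scid and 9.97 and 9.77 in BDC2.5/NOD.scid, a 7.18-fold difference (2.84, SE 0.10, limma adjusted p = 3.85e-09). Heavy chains of class I were higher as well, H2-K1 by 2.40 and H2-D1 by 2.38. Heavy chain genes are near-identical copies, and probe sets may read more than 1 of them: other H2-K1 probe sets gave 1.59 and, at a level of 4.91 in both groups, 0.01, and those of H2-D1 gave 1.38 and 2.02. Inducible proteasome subunits split. Psmb8 read 4.18 and 4.01 against 5.30 and 5.75. Psmb9 read 4.40 and 4.40 against 5.53 and 5.65, and both were higher. Psmb10, the third inducible subunit, went the other way, from 7.52 and 7.63 to 7.22 and 7.02 (a difference of -0.46, adjusted p = 0.0107). The peptide transporter chain Tap1 was at 0.17 on its brightest probe set, which did not pass, and at 1.08 on a dimmer one, which did (adjusted p = 7.03e-05).

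Interferon-induced genes outside MHC differed by less. Of 48 measured, 11 were higher and Isg20 was lower, with a median of 0.15. Iigp1, a GTPase that attacks vacuoles of parasites, read 4.22 and 4.07 in NOD.scid and 5.42 and 6.02 in BDC2.5/NOD.scid (1.57, limma adjusted p = 5.38e-05), with a dimmer probe set at 0.15 that did not pass. Gbp2, a guanylate-binding protein, differed by 0.89, and the T cell attractant Cxcl9 read 2.90 and 2.96 against 3.63 and 4.03. The smaller calls included GTPases of the same families, with Gbp3 at 0.63, Irgm1 at 0.56, Igtp at 0.51 and Irgm2 at 0.50. Not all were GTPases: Ifi204 was at 0.63, with other probe sets at 0.04 and 0.19 that did not pass. Ifng itself stayed near the lowest values of the arrays, at means of 2.29 and 2.32, and its target Irf1 was at 0.34 (adjusted p = 0.123). In place of 11 calls there were 3 with dim probe sets filtered out, 6 with NOD.scid replicate 1 left out, and 7 with BDC2.5/NOD.scid replicate 2 left out or with the 4 arrays of the comparison alone. Among higher genes, the NOD mean lay on the NOD.scid side of the midpoint for all 6 class II and all 8 class I genes. It did so for all 11 interferon-induced genes as well, and for 151 of all 203 higher genes (74.4%). In these listed genes BDC2.5/NOD.scid stood apart from both strains without the transgene.

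Sequences before the start sites of genes that were higher are shown with motifs known from these pathways, chosen with the results known. The windows are the 150 bases before the start from RefSeq on GRCm38.p6, and capitals mark the motif. GATTGG, the inverted CCAAT box that class II promoters share, lies in H2-Aa (chr17:34287824-34287973, minus strand), H2-Eb1 (chr17:34305717-34305866, plus strand, once on each strand) and H2-DMb1 (chr17:34153041-34153190, plus strand).
H2-Aa: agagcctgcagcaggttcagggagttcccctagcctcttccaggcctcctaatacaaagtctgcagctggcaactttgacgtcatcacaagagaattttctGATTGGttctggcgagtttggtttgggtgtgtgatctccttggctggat
H2-Eb1: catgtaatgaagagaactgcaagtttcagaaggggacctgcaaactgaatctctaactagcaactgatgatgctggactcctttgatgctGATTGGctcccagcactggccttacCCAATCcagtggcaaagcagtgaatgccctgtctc
H2-DMb1: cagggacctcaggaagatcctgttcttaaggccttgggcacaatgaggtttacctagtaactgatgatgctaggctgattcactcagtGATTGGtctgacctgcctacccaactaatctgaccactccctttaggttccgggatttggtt
GAAA, any 2 bases and GAAA again, the core of the interferon-stimulated response element, lies in B2m (chr2:122147537-122147686), Ctss (chr3:95526636-95526785) and Gbp2 (chr3:142620513-142620662, where it reads in reverse), all on the plus strand.
B2m: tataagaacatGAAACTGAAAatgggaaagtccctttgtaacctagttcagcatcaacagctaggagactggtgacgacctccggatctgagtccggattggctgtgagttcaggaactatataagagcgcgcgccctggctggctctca
Ctss: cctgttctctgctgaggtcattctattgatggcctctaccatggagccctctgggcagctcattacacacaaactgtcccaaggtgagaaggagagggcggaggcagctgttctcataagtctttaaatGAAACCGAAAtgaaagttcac
Gbp2: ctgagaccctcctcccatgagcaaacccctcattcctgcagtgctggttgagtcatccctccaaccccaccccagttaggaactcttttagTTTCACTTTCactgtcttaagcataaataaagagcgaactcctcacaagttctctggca
TTCNNNGAA, the palindrome bound by STAT proteins, lies in Psmb8 (chr17:34198045-34198194) and in Reg3b (chr6:78370735-78370884), both on the plus strand.
Psmb8: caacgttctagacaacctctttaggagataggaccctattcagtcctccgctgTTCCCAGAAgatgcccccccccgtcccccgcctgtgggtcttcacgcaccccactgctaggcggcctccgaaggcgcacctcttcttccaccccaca
Reg3b: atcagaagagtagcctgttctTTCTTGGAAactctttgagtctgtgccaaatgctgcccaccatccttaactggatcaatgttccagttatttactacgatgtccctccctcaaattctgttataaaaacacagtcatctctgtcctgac
Searched on both strands of the 250 bases before the start, GATTGG was in 26.4% of 159 higher genes with a window, 21.4% of 309 lower genes, 21.0% of 6108 genes that did not pass and 14.6% of all 32851 windows. The core of the interferon-stimulated response element was in 8.81%, 4.21%, 3.21% and 2.98% of these, and TTCNNNGAA in 13.8%, 7.12%, 7.24% and 7.02%. A gene counted if any of its windows matched, whereas the share of all windows counts each window by itself. Genes with several windows therefore raise the gene shares against it. The motifs were matched by letters alone, and no binding was measured.

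Genes of macrophages and monocytes were higher alongside, and 1 of them, Ctss, is also counted above. Of 41 measured, 14 were higher and 0 lower, with a median of 0.30, and the mean log2 level of the whole list was 4.79 on both NOD.scid arrays against 5.26 and 5.18. Lyz2, lysozyme of myeloid cells, read 3.98 and 4.18 in NOD.scid and 6.29 and 5.77 in BDC2.5/NOD.scid (1.95, SE 0.16, limma adjusted p = 7.07e-06), while a dimmer probe set was at 0.44 and did not pass. C1qc, a chain of the first complement component made by tissue macrophages, read 6.19 and 6.29 against 7.35 and 7.28, and C1qa differed by 0.71. Cd14, a receptor for bacterial lipopolysaccharide, read 6.40 and 6.47 against 7.66 and 7.47. The scavenger receptor Marco (0.78), the lectin Lgals3 (0.75), Cd68 (0.57) and the growth factor receptor Csf1r (0.44) were higher by less, and dimmer probe sets of Cd68 (0.00) and Csf1r (0.24) did not pass. Defining markers of the lineage did not all pass: Adgre1, which encodes F4/80, was at 0.32 (adjusted p = 0.170) and Ptprc, the common leukocyte antigen, at 0.11 (adjusted p = 0.670). Of 16 dendritic cell genes, 0 were higher, and Itgax was at 0.06. How far macrophage number entered the class II difference was not tested. All 14 had a NOD mean on the NOD.scid side of the midpoint, as did 74.4% of all 203 higher genes. Of the 14, 10 also differed more in NOD.scid than in NOD by the test of the difference.

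Some chemokine, lysosome and complement genes were higher too, and several of them are also counted in other lists. Ctss, Cd68, Laptm5, C1qa and C1qc are counted among macrophage genes. Cxcl9 is counted among interferon-induced genes and Serping1 among acute-phase genes. Of 41 chemokines and receptors, 5 were higher and 0 lower, and 3 were higher with dim probe sets filtered out. Ccl9, an attractant of myeloid cells, read 4.38 and 4.32 in NOD.scid and 5.71 and 5.67 in BDC2.5/NOD.scid (1.34, limma adjusted p = 2.07e-06), and Ccl8, an attractant of monocytes and T cells, read 4.73 and 4.98 against 6.15 and 5.98. Ccl5, made by T and NK cells among others, differed by 0.66. Neither Ccl2 (0.17) nor Cxcl10 (0.15) passed, and Tnf was at -0.06. Of 27 genes of cathepsins and lysosome, 6 were higher, among them the asparaginyl protease Lgmn (0.85) and prosaposin, Psap (0.68; dimmer probe sets at 0.27 and 0.12 did not pass), and the tetraspanin Cd63 was lower at -0.47. Of 21 complement genes, 4 were higher, and 2 were without either BDC2.5/NOD.scid array. Of 22 genes of adhesion and vascular inflammation, 0 passed limma's threshold and 4 had an unadjusted p under 0.05. Of this list, Vcam1, an adhesion molecule of activated endothelium, was at 0.24, but dimmer probe sets of it passed at 0.83 (adjusted p = 0.00380) and 0.62 (adjusted p = 0.0132).

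Lymphocyte genes showed little at this resolution. Of 25 T cell genes and 23 B cell genes, 0 passed limma's threshold in either direction, while 4 and 2 had an unadjusted p under 0.05. The mean log2 level of the T cell list was 4.32 and 4.36 in NOD.scid and 4.42 and 4.41 in BDC2.5/NOD.scid. Cd3e and Cd4 were at 0.23 and 0.15 and Cd8a at -0.06. T cell receptor segments were measured through Trav9d-3 and Trbv1, which were both higher. Trav9d-3, an alpha chain variable segment, read 6.93 and 7.12 against 7.57 and 7.47 (0.49, limma adjusted p = 0.00803), with other probe sets at 0.83, which passed, and 0.25, which did not. Trbv1, a beta chain variable segment, read 5.31 and 5.51 against 6.13 and 5.84 (0.58, adjusted p = 0.00875), with another probe set at 0.04. The mean log2 level of the 2 segments was 6.12 and 6.31 in NOD.scid and 6.10 and 6.23 in NOD, which does not carry scid. It was 6.85 and 6.65 in BDC2.5/NOD.scid but 5.97 on both BDC2.5/NOD arrays, so it did not rise with the transgene in NOD. Variable segments resemble one another, and the transgene's own segments were not matched to probe sets here. Neither segment passed without NOD.scid replicate 1, so these readings check the labels only weakly. Of 37 genes of T cell activation and effector function, 3 were higher and 0 lower. These were Ccl5, counted above, Gzmb, a cytotoxic granule protease (0.46), and the TNF receptor Tnfrsf1b (0.51). With dim probe sets filtered out 0 were higher, and 1 was without NOD.scid replicate 1 or without BDC2.5/NOD.scid replicate 1. Il2ra (-0.02) and Prf1 (0.07) were among those that did not pass. Of 15 genes of lymph node and lymphoid stroma, 0 passed in limma and 2 had an unadjusted p under 0.05. Igkv6-23, an immunoglobulin variable segment, read 3.81 and 3.57 against 4.82 and 4.96, although scid blocks the joining of such segments.

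The largest differences of the comparison were in Reg lectins, secreted by acinar cells under stress. Of 5 measured, 4 were higher. Reg3g read 5.18 and 5.02 in NOD.scid and 10.03 and 9.65 in BDC2.5/NOD.scid, a 26.7-fold difference (4.74, SE 0.12, limma adjusted p = 2.24e-10). Reg3b read 9.09 on both NOD.scid arrays against 12.91 and 12.86, and Reg3a read 8.47 and 8.37 against 11.31 and 11.10. These were differences of 3.79 and 2.78. Reg2 read 9.65 and 9.60 against 12.28 and 12.02, while its dimmer probe set, at 0.14, did not pass. Reg1, bright in both groups, was at -0.08 (adjusted p = 0.742).

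Acute-phase genes were higher with the Reg genes, for 10 of 30 measured, and vitronectin, Vtn, was lower at -0.89. Cd14 and Serping1, among the 10, are also counted above. Lrg1, a leucine-rich glycoprotein of inflammation, read 4.35 and 4.11 in NOD.scid and 7.85 and 7.87 in BDC2.5/NOD.scid, a 12.3-fold difference (3.63, SE 0.10, limma adjusted p = 5.40e-10). Saa3, a serum amyloid A protein, read 3.54 on both NOD.scid arrays against 6.39 and 6.19. Ceruloplasmin, Cp, the copper carrier, read 4.14 and 4.02 against 5.43 and 5.52, and Itih4, an inhibitor chain, read 5.33 and 5.14 against 6.63 and 6.48. All 4 of these passed limma's threshold. Haptoglobin, Hp, differed by 0.93 and the lipopolysaccharide-binding protein Lbp by 0.57. Lipocalin, Lcn2, was at -0.07 on its brightest probe set, which did not pass, and at 1.38 on a dimmer one, which did (adjusted p = 5.14e-06). Of 19 liver genes outside this list, Apoc1 was higher and Rbp4 lower.

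Of 26 genes of the IL-6 family and STAT3 signalling, 4 were higher and 0 lower. Il6 itself, at means of 2.3 and 2.4, lay near the lowest values of the arrays. It did not pass, and neither did the receptor chains Il6st (0.05) and Il6ra (0.46). Lifr, the receptor of leukaemia inhibitory factor, read 5.89 and 5.68 against 6.99 and 7.13 (1.27, limma adjusted p = 5.19e-06), with other probe sets at 0.86 and 1.08, which passed, and at 0.23 and -0.07, which did not. Cebpb and Cebpd, transcription factors of the acute-phase response, differed by 1.26 and 0.85 and the kinase Pim1 by 0.36, with a dimmer Pim1 probe set at 0.14 that did not pass. Stat3 was at 0.21 and its feedback inhibitor Socs3 at 0.43 (adjusted p = 0.0730), and neither passed on its brightest probe set. Dimmer probe sets did, at 0.41 for Stat3 (adjusted p = 0.0154) and 0.86 for Socs3 (adjusted p = 0.00203). In place of 4 calls there were 2 with BDC2.5/NOD.scid replicate 2 left out, 7 with the mean of a gene's probe sets and 8 with its most variable probe set.

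**Figure D2:**
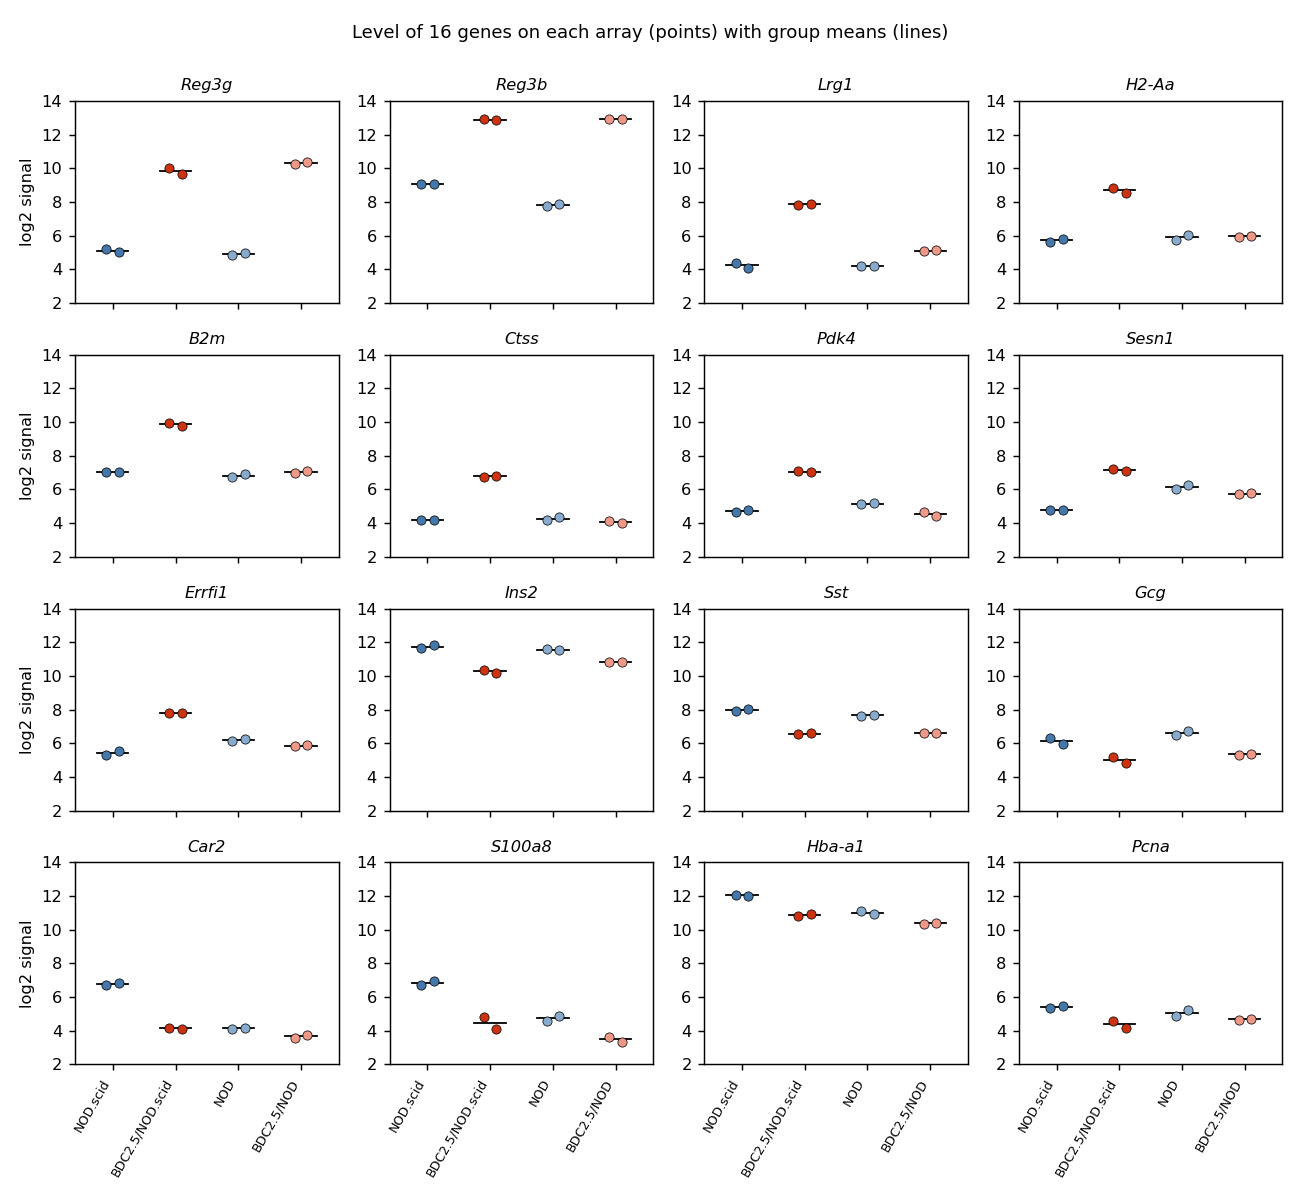
Log2 signal of 16 genes on each of 8 arrays in the 4 groups; points are arrays and lines group means. In H2-Aa, B2m, Ctss and Lrg1 the BDC2.5/NOD.scid arrays lie above the 3 other groups, in Reg3g and Reg3b both transgenic groups are high, and in Car2 and S100a8 the NOD.scid arrays stand above the rest.

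A further set of genes that were higher encodes regulators of fuel use and growth signalling. Pdk4, the kinase that shuts off pyruvate dehydrogenase in fasting, read 4.68 and 4.79 in NOD.scid and 7.11 and 7.01 in BDC2.5/NOD.scid (2.32, SE 0.11, limma adjusted p = 2.87e-08). Sesn1 and Ddit4, inhibitors of mTORC1, read 4.78 and 4.80 against 7.21 and 7.11, and 5.35 and 5.51 against 7.46 and 7.32. Errfi1, a feedback inhibitor of the EGF receptor, read 5.32 and 5.52 against 7.78 and 7.81. In each of these 4 genes the arrays of a group lay close together and the groups were far apart. Txnip, which restrains glucose uptake, read 6.82 and 6.64 against 8.24 and 8.37, although a dimmer probe set, at 0.13, did not pass. The kinase Sgk1 (0.94) was higher, as were the chaperone Fkbp5 (1.31) and the clock gene Per1 (0.56), which were picked out after their values were seen. Of 39 immediate early and feedback genes, 12 were higher and 0 lower, including Klf10 (1.11), the phosphatase Dusp1 (0.88) and Zfp36, which destabilises cytokine mRNA (0.84). The metallothioneins Mt1, at 9.70 and 9.78 against 11.34 and 11.20, and Mt2 (1.42) were higher too. Among 32 genes of fatty acid oxidation and fuel switch, Pdk4, Txnip, the thioesterase Acot1 (0.92) and Acadm (0.51) were higher, and Hadh (-0.50) and Etfb (-0.47; another probe set at -0.14 did not pass) were lower.

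Acinar genes were called in both directions. Of 22 lipases and granule proteins, 6 were higher and 2 lower, and of 12 proteases, 3 were higher and 1 lower. Dmbt1, a scavenger protein of mucosal secretions, read 10.68 and 10.65 in NOD.scid and 12.19 and 12.11 in BDC2.5/NOD.scid (1.49, limma adjusted p = 1.50e-07). Nupr1, a stress regulator of acinar cells, read 7.83 and 8.17 against 9.27 and 8.82, and the phospholipase Pla2g1b read 11.20 and 10.88 against 11.69 and 11.95. The classical enzymes differed little, with the elastase Cela1 at -0.05, chymotrypsinogen Ctrb1 at -0.02 and trypsinogen Prss2 at -0.08, and none passed. The probe set annotated as Wdr92 read 8.65 and 7.94 against 11.86 and 11.94, and NOD, at a mean of 11.25, lay with the transgenic group. The trefoil peptide Tff2 was lower (-0.72), as was the granule GTPase Rab3d (-0.54).

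Genes of protein folding in the endoplasmic reticulum, where digestive enzymes are made, went both ways: 5 of 36 were higher and 4 lower, with a median of -0.01. Herpud1, part of the degradation machinery, read 7.51 and 7.15 in NOD.scid and 8.31 on both BDC2.5/NOD.scid arrays (0.98, limma adjusted p = 0.000304), and Hspa5, the chaperone BiP, read 7.96 and 7.78 against 8.83 and 8.53. Lower were the translocon subunits Sec61b (-0.72) and Sec61a1 (-0.44), and the translocon-associated Ssr2 was at -1.12. NOD lay on the side of BDC2.5/NOD.scid for all 5 genes that were higher, and for 52 of all 203 higher genes. Of 33 genes of the ATF4 arm, Nupr1 alone passed. Without NOD.scid replicate 1 or BDC2.5/NOD.scid replicate 2, 2 of the 4 lower genes passed.

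Several islet hormones were lower in BDC2.5/NOD.scid. Ins2, insulin, read 11.64 and 11.81 in NOD.scid and 10.35 and 10.20 in BDC2.5/NOD.scid, 2.73-fold lower (-1.45, SE 0.09, limma adjusted p = 3.99e-07). Iapp, amyloid polypeptide stored with insulin, read 5.62 and 5.25 against 4.29 and 3.84. Of 9 other islet hormones measured, 2 were lower and 0 higher, with a median of -0.05 and 3 positive and 6 negative differences. Somatostatin, Sst, of delta cells read 7.89 and 8.04 against 6.52 and 6.63. Glucagon, Gcg, of alpha cells read 6.30 and 5.98 against 5.15 and 4.82. Ins2, Iapp, Sst and Gcg were named by size, a rule that required the arrays of the groups not to overlap. Pancreatic polypeptide, Ppy, was at -0.19 on its brightest probe set, which did not pass, and at -0.73 on a dimmer one, which did (adjusted p = 0.00197). Of 17 beta cell genes, 5 were lower and 0 higher, the others being Rbp4 (-0.60), Hadh (-0.50) and Dlk1 (-0.47). The beta cell regulator Pdx1 (-0.21, adjusted p = 0.317) and the glucose transporter Slc2a2 (-0.16) did not pass.

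Granins and processing enzymes of hormone granules followed, with 5 of 23 lower and 0 higher. Cpe, the carboxypeptidase that trims prohormones, read 7.371 and 7.049 in NOD.scid and 6.504 and 6.511 in BDC2.5/NOD.scid, and Scg2, a secretogranin, read 4.49 and 4.37 against 3.64 and 3.59 (-0.82, limma adjusted p = 0.000324). Chga was at -0.36 (adjusted p = 0.107) and Pcsk1 at 0.05. In place of 5 calls there were 2 with BDC2.5/NOD.scid replicate 2 left out or with dim probe sets filtered out, and 3 with either NOD.scid array left out, with array weights or with the 4 arrays of the comparison alone. Of 17 islet transcription factors, Foxa2 (-0.66), Sox4 (-0.49) and Foxa3 (-0.40) were lower, and 1 of them without NOD.scid replicate 1 or BDC2.5/NOD.scid replicate 1. Among imprinted growth genes, 4 of 25 were lower, 2 without NOD.scid replicate 1 or BDC2.5/NOD.scid replicate 2, and 1, the binding protein gene Igfbp3, was higher at 0.49, with another probe set at 0.30 that did not pass. Igf2, the fetal growth factor, read 9.003 and 8.423 against 7.779 and 8.018, with a dim probe set at -0.06 that did not pass, and the cell cycle inhibitor Cdkn1c read 4.96 and 4.87 against 4.18 and 3.98.

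Red cell genes were lower in BDC2.5/NOD.scid, with 10 of 26 lower, 0 higher and a median of -0.34. Hba-a1, an alpha globin, read 12.07 and 12.01 in NOD.scid and 10.83 and 10.93 in BDC2.5/NOD.scid (-1.16, SE 0.08, limma adjusted p = 2.68e-06). The beta globin Hbb-b2 read 8.709 and 8.499 against 7.121 and 7.222; globin genes are near-identical copies, and their signals may be shared. Hemgn, a nuclear protein of erythroid precursors, read 4.60 and 4.35 against 2.72 and 2.63, with a dimmer probe set at -0.38 that did not pass. Car2, a carbonic anhydrase of red cells and of ducts, read 6.70 and 6.85 against 4.17 and 4.09, 6.25-fold lower and the largest decrease of the comparison. Alas2, the first enzyme of erythroid heme synthesis, and the anion exchanger Slc4a1 were lower by less, at -0.61 and -0.77. NOD lay on the BDC2.5/NOD.scid side of the midpoint for all 10 genes, and for 120 of all 372 lower genes. Its means were 11.01 for Hba-a1 and 4.14 for Car2, so NOD.scid was the group that stood apart.

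Some neutrophil granule genes shared this arrangement. Of 23 measured, 5 were lower and Hp, also an acute-phase gene, was higher. The median of the list was -0.05, with 10 positive and 13 negative differences, called or not. S100a8 and S100a9, the calprotectin chains, read 6.70 and 6.94 against 4.80 and 4.07, and 6.08 and 6.20 against 4.24 and 3.99. Camp, an antimicrobial peptide of secondary granules, read 6.80 and 6.76 against 5.50 and 5.49, close to the NOD mean of 5.53 (a difference of -1.28, limma adjusted p = 2.23e-06). Ngp (-0.94) and Ltf (-0.47) were lower as well, whereas the primary granule genes Mpo (-0.23) and Elane (-0.22) did not pass. Lcn2, also in this list, was at -0.07 on its brightest probe set and passed at 1.38 on a dimmer one. NOD lay on the BDC2.5/NOD.scid side for all 5 lower genes, and for 120 of all 372 lower genes. Of 7 platelet genes, 0 passed in limma, also at an unadjusted p under 0.05.

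Cell cycle genes were lower in number more than in size: 22 of 76 were lower and 0 higher, with a median of -0.24. Pcna, the clamp of DNA polymerase, read 5.34 and 5.49 in NOD.scid and 4.58 and 4.17 in BDC2.5/NOD.scid (-1.04, limma adjusted p = 0.000699). Cks2, a partner of cyclin-dependent kinases, read 4.61 and 4.79 against 3.91 and 3.61, and Smc4, a condensin subunit, was at -0.91. The mitotic kinase Cdk1 and its regulators Cdc20 and Ccnb2 were lower at -0.61, -0.76 and -0.67, while Top2a (-0.33, adjusted p = 0.0848) did not pass. Mki67, a marker of dividing cells, was at -0.23 on its brightest probe set, which did not pass, and at -0.93 on a dimmer one, which did (adjusted p = 0.000246). In place of 22 calls there were 11 with BDC2.5/NOD.scid replicate 2 left out, 12 with NOD.scid replicate 1 left out and 13 with either BDC2.5/NOD array left out. Erythroid genes, some of them active in dividing precursors, were lower on the same arrays; their part in the cell cycle difference was not tested. The NOD mean lay on the NOD.scid side for 13 of the 22 cell cycle genes and on the other for 9. Of all 372 lower genes, it lay so for 252 and 120.

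Some matrix genes were lower, 9 of 44, and 0 were higher. The median of the list was -0.05, with 20 positive and 24 negative differences, called or not. Serpinh1, the collagen chaperone, read 6.01 and 5.77 in NOD.scid and 4.87 and 4.95 in BDC2.5/NOD.scid (-0.98, limma adjusted p = 6.32e-05). Lumican, Lum, a collagen-binding proteoglycan, read 5.74 and 5.43 against 4.92 and 4.72, and periostin, Postn, 4.97 and 5.02 against 4.41 and 3.93. Among fibrillar collagen genes, Col1a1 and Col1a2 were at -0.52 and Col3a1 at -0.42. Dimmer Col3a1 probe sets passed at -0.91 and -0.80 (adjusted p = 0.00863 and 0.00261), and other probe sets of Col1a1 (-0.65) and Col1a2 (0.14) did not pass. Of the 9 genes, 7 also fell with the transgene in NOD. The NOD mean lay on the NOD.scid side for all 9, and for 67.7% of all 372 lower genes. The count was 5 without BDC2.5/NOD.scid replicate 2. Endothelial genes (18 measured) and genes of muscle and nerve (20 measured) had 0 calls in limma, and 6 and 1 of them an unadjusted p under 0.05.

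Other epithelial and housekeeping groups showed smaller shifts. Of 34 duct and epithelial genes, 5 were lower and 2 higher: besides Car2 and Tff2, the trefoil peptide Tff1 read 7.97 and 8.14 in NOD.scid against 6.87 and 7.07, while Pigr, the transporter of secreted antibodies, read 6.10 and 6.04 against 7.40 and 7.17. Krt19, a duct keratin, was at -0.52 (limma adjusted p = 0.0611). In the respiratory chain and ATP synthase, 11 of 50 were lower and 0 higher, with Ndufb8, a subunit of complex I, at 6.87 and 6.91 against 6.12 and 5.92. Calls numbered 4 with BDC2.5/NOD.scid replicate 2 left out, 6 with NOD.scid replicate 1 left out and 7 with NOD.scid replicate 2 left out, and the median was -0.12 within the low and -0.30 within the high actin arrays. Of 37 glutathione and antioxidant genes, 6 were lower, led by Mgst3 (-1.56) and the red cell peroxiredoxin Prdx2 (-1.36), each with dimmer probe sets that did not pass, and Gpx3 was higher. Ribosomal proteins (4 of 27) and proteasome subunits (4 of 31) were lower in small numbers, and each count was 2 without BDC2.5/NOD.scid replicate 2; that of the proteasome was also 2 without NOD.scid replicate 1.

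**Figure D3:**
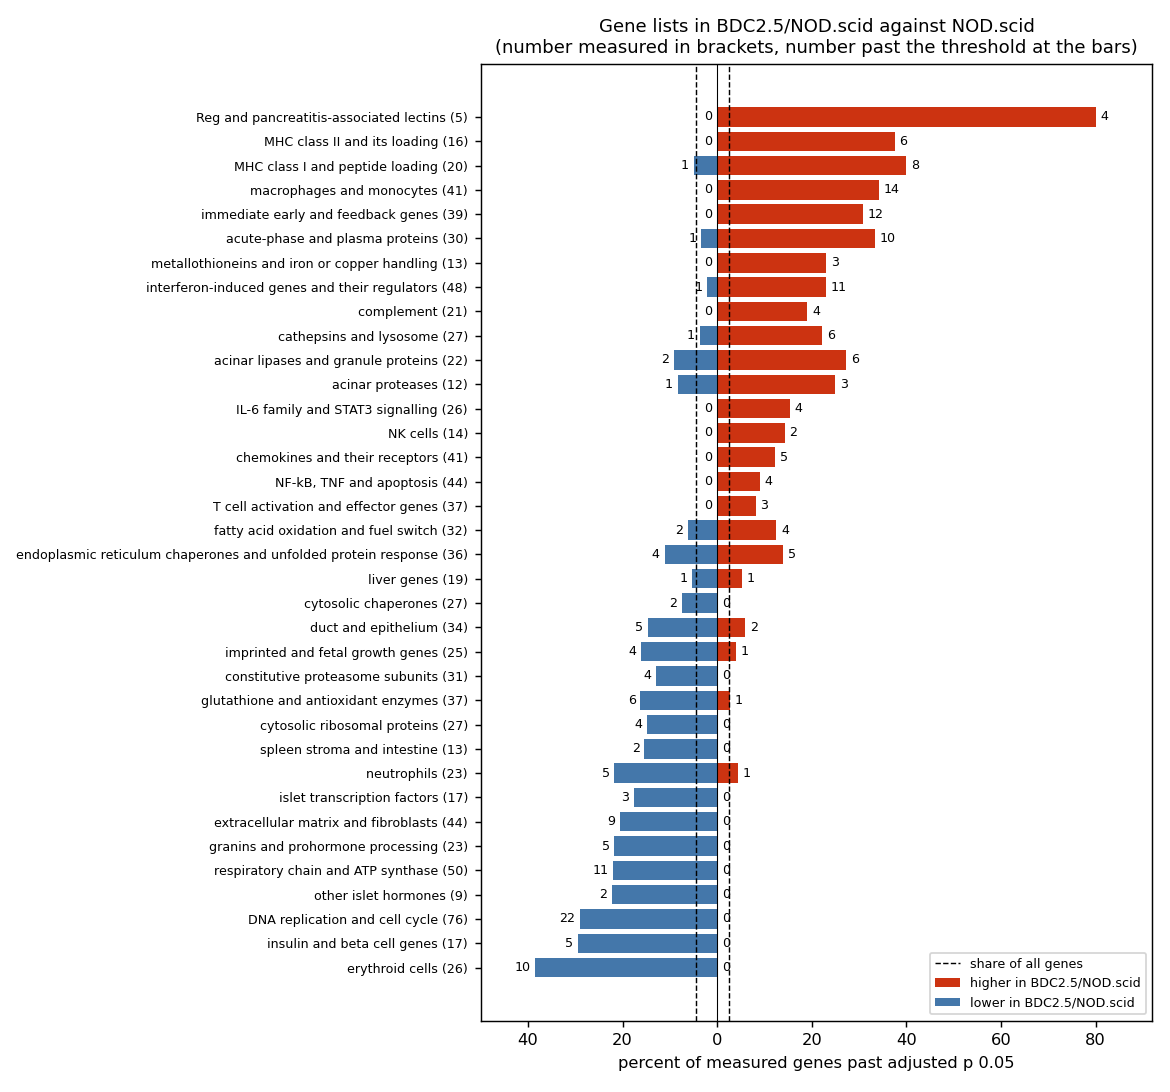
Percent of measured genes past the limma threshold in each list with at least 5 measured genes and 2 calls, higher to the right and lower to the left; dashed lines are the shares of all genes, 2.46% and 4.51%. Reg lectins (4 of 5) and MHC lists extend farthest right, and erythroid (10 of 26), beta cell (5 of 17) and cell cycle (22 of 76) genes farthest left.

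The transgene was also compared in NOD, with other arrays, to ask which of these differences depend on scid. The difference between both effects, an interaction in the limma fit, passed for 205 genes in the positive direction (2.48%) and 239 in the negative (2.90%). Of the 203 genes that were higher in BDC2.5/NOD.scid, 112 passed it, and of the 372 that were lower, 109 did. Of the 203, 40 (19.7%) were among the 343 genes higher in BDC2.5/NOD (4.16% of all), which is 11.7% of that list, and of the 372, 97 (26.1%) were among the 376 lower there (4.56% of all), which is 25.8%. Another 17 and 12 passed in the opposite direction. Over probe sets, 586 passed the interaction (4.72%), against 195 without BDC2.5/NOD replicate 1, 214 without BDC2.5/NOD replicate 2 and 346 without NOD replicate 1.

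Among the groups described, calls in the same direction recurred in NOD for all 4 Reg lectins that were higher, 4 of 5 beta cell genes, 7 of 9 matrix genes and 4 of 5 endoplasmic reticulum chaperones that were higher. Reg3g differed by 5.38 in NOD against 4.74 in NOD.scid, and the interaction did not pass (-0.64, limma adjusted p = 0.0515). Reg3b, Reg3a and Reg2 differed by more in NOD, at 5.10, 4.98 and 4.17, and did pass. The mean of Reg3b was 12.93 in BDC2.5/NOD, close to the 12.89 of BDC2.5/NOD.scid, and 7.83 in NOD, below the 9.09 of NOD.scid. Sst (-1.04) and Gcg (-1.29) fell in NOD as well and passed no interaction, whereas the decrease of Ins2 was -0.73 in NOD and the interaction was -0.71 (adjusted p = 0.00548).

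Many antigen presentation, macrophage and fuel genes differed more in NOD.scid than in NOD. H2-Aa differed by 0.05 in NOD against 2.96 in NOD.scid (interaction 2.91, limma adjusted p = 8.91e-07), B2m by 0.22 against 2.84 and Ctss by -0.21 against 2.61. Class I heavy chains were higher in both, H2-K1 by 0.66 and H2-D1 by 0.62 in NOD, and still passed the interaction at 1.74 and 1.77. Txnip, Sgk1, Klf10, Pdk4 and Mt1 had opposite signs, at -1.49, -0.99, -0.75, -0.63 and -0.58 in NOD against 1.57, 0.94, 1.11, 2.32 and 1.53. In the other direction stood endoplasmic reticulum chaperones, with Hspa5 at 1.53 in NOD against 0.81 and Creld2 at 2.08 against 0.56. The BDC2.5/NOD arrays had brighter hybridisation controls, with the middle BioB probe set at 7.73 and 7.76 against 6.54 to 7.20 on the other arrays, and the part of this in the interaction was not tested.

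**Figure D4:**
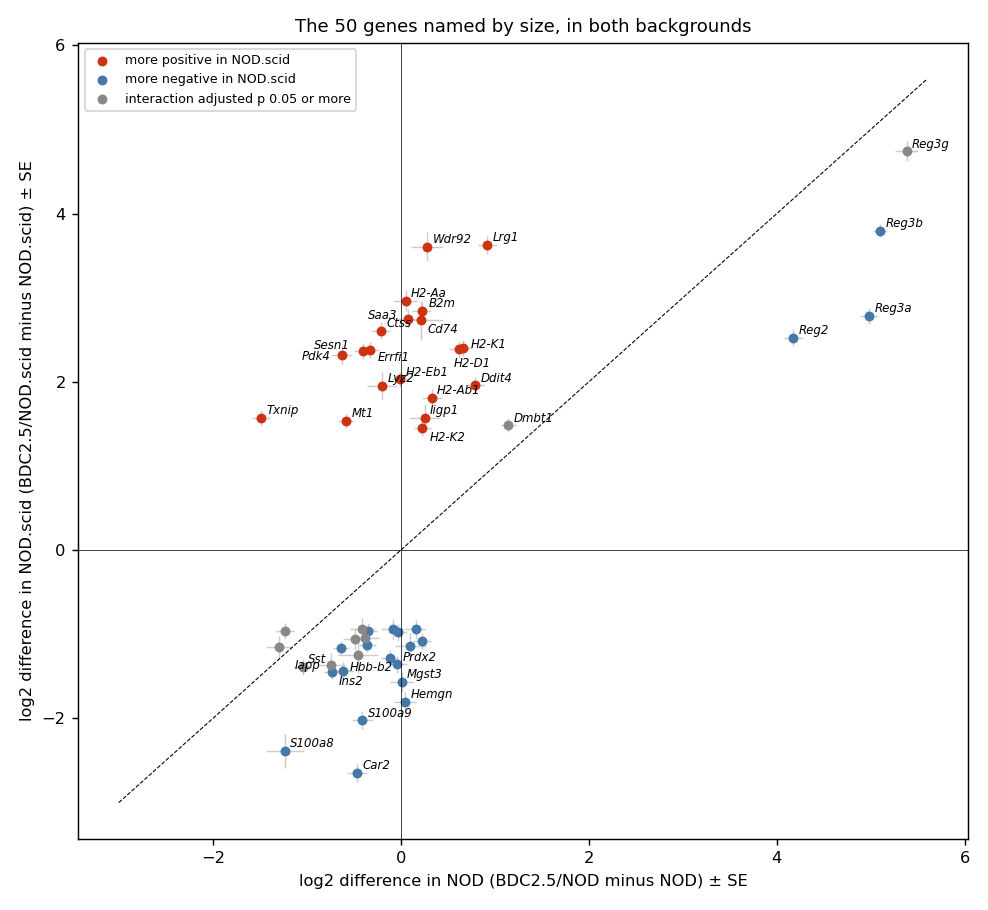
Log2 difference with the transgene in NOD.scid (vertical) against that in NOD (horizontal), with standard errors, for the 50 genes named by size; the dashed line marks equal differences and colours the interaction. Reg genes and Dmbt1 lie at the upper right near or below the line, whereas MHC genes, Ctss, Lrg1 and Pdk4 lie on the left at NOD differences under 1.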

How the data were processed

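RNA of whole pancreas was hybridised to Affymetrix arrays, and the authors deposited 1 value per probe set and array. Per the labels, targets were made by the manufacturer's procedure from about 10 ug of total RNA. The deposited values are taken to be log2, from their range of 2.02 to 13.78; the sources used here do not say how the authors normalised them, corrected background and summarised probes. Array medians lay at 4.24 to 4.30, so the values were used with no further scaling. Precision is limited by the few arrays.

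Of 12488 probe sets, 66 array controls were left out and 12422 tested. The platform annotation gave 1 symbol for 10833, several for 396 and none for 1193, and no gene was named from a probe set with several. Each of 8251 genes was read from the probe set that was brightest on average over 8 arrays. Group means were fitted to all 8 arrays in limma 3.58.1 (R 4.3.3) with a variance trend, and two-sided p-values were adjusted over 12422 probe sets (Benjamini-Hochberg), with a threshold of 0.05. SE is limma's standard error. Residual degrees of freedom were 4, and the variance prior added 8.07.

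Gene lists were described by counts and medians. Named were up to 25 genes per direction by size, called, with arrays that do not overlap and the higher mean above 4.27; up to 8 genes per list by p, with fixed members; and up to 10 per direction of the interaction. Fkbp5, Itgax, Lbp, Isg20 and Per1 fall outside this rule and were named after their values were seen. The comparison, members, lists and motifs were chosen with earlier results of these data known. In 5 simulations of BDC2.5/NOD.scid against NOD.scid over 12422 probe sets, with 200 changed, the fit recovered 80.4% of changes of 0.5 and 100% of changes of 1, 2 or 3, and false calls were 8.41% of calls. Alternatives covered normalisation, filtering, the prior, the arrays fitted, array weights, the threshold, the choice of probe set and each array left out. A term for the actin control was added after seeing the data. Sequences came from RefSeq tables of GRCm38.p6. Tables and plots used pandas 2.3.3 and matplotlib 3.10.9.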

Additional observations from a re-analysis of the deposited data

Results flagged for a closer look

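For 20 genes named here, the difference with the transgene in NOD.scid and that in NOD differed by limma's interaction test at an adjusted p under 0.05; values are the former minus the latter on the log2 scale. The interaction was 3.33 for the Wdr92 probe set, 3.06 for Txnip, 2.95 for Pdk4, 2.77 for Sesn1, 2.70 for Errfi1 and 2.71 for Lrg1. Antigen presentation gave 2.91 for H2-Aa and 2.82 for Ctss. Immunoglobulin segment Igkv6-23 gave 2.92. Negative values came from genes that differed more, or in the positive direction, in NOD: -2.20 for Reg3a, -1.65 for Reg2, -1.74 for Itih4, -2.44 for 1810009J06Rik, -2.62 for Pdxdc1, -1.82 for Pdia4 and -1.62 for Pdia3. In NOD.scid the brightest Pdxdc1 probe set was at -0.47 and 2 others, at 0.26 and 0.10, did not pass. Red cell and neutrophil genes with a larger decrease in NOD.scid gave -2.18 for Car2, -1.84 for Hemgn and -1.61 for S100a9. Xist gave 3.85, with readings that differed between arrays of a group.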

How the results depend on the processing

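Over 19 alternative settings, all 50 genes named by size kept their call, as did 130 of the 205 named genes that passed, and 0 reversed direction. The counts moved more. In NOD.scid the transgene comparison called 795 probe sets and 575 genes: 455 and 331 from its 4 arrays alone, 432 and 314 at a threshold of 0.01, and 1315 and 965 with a term for the actin control, an alternative chosen after seeing the data. The interaction called 586 probe sets, 229 at a threshold of 0.01 and 1042 with the actin term. Leaving out each array in turn gave 445 to 746 probe sets, 319 to 528 genes and 195 to 491 probe sets of the interaction. A stricter threshold lowers counts by construction. Counts without 1 array differed with the array left out, and the cause of these and the other changes was not tested. Quantile normalisation and median centring kept each count within 1.5 times the main one. No paired analysis was possible because the labels number only 1 array of each group. With 2 arrays a group, a p that misses the threshold does not show that levels were equal, and dim probe sets give differences of uncertain size.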

Other observations

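Several genes of basic cell functions were among the 25 largest decreases in BDC2.5/NOD.scid and belong to no list above. Ssr2, a subunit of the translocon-associated complex, read 7.81 and 7.89 in NOD.scid and 6.78 and 6.67 in BDC2.5/NOD.scid. Dpm3, which anchors the synthase of dolichol-linked mannose, read 7.35 and 7.13 against 6.32 and 6.24. Both serve protein export. Sf3b5, a splicing factor subunit, read 6.23 and 6.06 against 5.29 and 4.88, and the arginine methyltransferase Prmt1 read 6.17 and 5.93 against 5.21 and 5.01. The histone variant gene H2ax, which marks DNA breaks, read 6.49 and 5.86 against 4.90 and 5.17. NOD means lay between the groups for all 5 of these genes. Bex4 read 6.49 and 6.39 against 5.50 and 5.45, and NOD, at 6.47, lay with NOD.scid.

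Probe sets that carry several gene symbols are named nowhere here. Of 396 such probe sets, 63 passed in BDC2.5/NOD.scid against NOD.scid (15.9%), compared with 6.40% of all probe sets and 47 of 1193 without a symbol (3.94%).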
